A study of Mus musculus with 20 samples.

Results

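The genes described here are 45 genes of mitosis and the mitotic spindle, chosen by name for what their proteins do between the end of G2 and the separation of the daughter cells. They were chosen with earlier results of these data known. Counts of members set beside the share of all genes are therefore descriptions and not independent support. They were read by 90 of the 30146 probes on the panel, and they are 45 of the 21450 genes it covers. The data are TempO-Seq profiles of whole liver from 20 male Balb-C mice aged 10 to 12 weeks, in 5 groups of 4 individual animals. The mice were given PFESA-BP2 (Nafion byproduct 2), a perfluorinated alkyl substance, by gavage once a day for 7 days at 0, 0.03, 0.3, 3 or 6 mg/kg per day. The 0 mg/kg mice are the vehicle controls: the treatment protocol names deionized water as their vehicle, while their sample titles read DMSO. All groups share strain, sex, age, route and 7 days of dosing, and no library comes from an untreated mouse or from another time. TempO-Seq counts pairs of short probes that are ligated only when both are bound to the same RNA, so a count reports a stretch of a transcript and not its whole length.

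Adult liver is largely quiescent, and most hepatocytes rest outside the cell cycle. When cells enter the cycle, as hepatocytes do after part of the liver is removed, the genes of mitosis are transcribed late, in G2 and M. Cyclins A2, B1 and B2 with the kinase CDK1 drive entry into mitosis. The chromosomal passenger complex corrects faulty attachments, and the spindle checkpoint holds back anaphase until the chromosomes are attached. CDC20 then turns on the anaphase-promoting complex, and motors and bundling proteins of the central spindle finish cytokinesis. Many of these promoters carry a cell cycle genes homology region (CHR, core TTTGAA), to which MuvB complexes bind: the repressive DREAM complex in resting cells, and complexes with B-MYB and FOXM1 in cycling cells. CCAAT boxes bound by NF-Y often stand upstream of it.

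The promoter sequences are shown first, to let a reader see what the members share beyond their function. Of the 45 members, 40 matched a promoter in the RefSeq table of mouse build GRCm38.p6, which gives 250 bases before and 50 bases after each gene's start. Those not matched are Ccna2, Cdc25c, Aurkb, Tpx2 and Kif20a. The 8 stretches below were picked among the promoters that hold both motifs, and run from 10 bases before the first to 10 bases after the last motif found. They read 5′ to 3′ on the gene's strand, with capitals marking a CHR core (TTTGAA, or TTCAAA on the other strand) or a CCAAT box (CCAAT, or ATTGG on the other strand). The reference is that of another strain than Balb-C, and the start sites are those of RefSeq.
Ccnb2: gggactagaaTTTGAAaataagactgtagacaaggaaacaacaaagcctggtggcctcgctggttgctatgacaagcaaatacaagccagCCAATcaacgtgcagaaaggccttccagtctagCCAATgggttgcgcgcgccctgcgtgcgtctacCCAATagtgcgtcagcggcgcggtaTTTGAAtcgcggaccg
Cdk1: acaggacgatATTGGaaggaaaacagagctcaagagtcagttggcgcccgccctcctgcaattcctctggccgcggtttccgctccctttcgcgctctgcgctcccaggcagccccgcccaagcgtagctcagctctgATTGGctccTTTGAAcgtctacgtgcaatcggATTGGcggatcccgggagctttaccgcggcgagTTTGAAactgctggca
Cdc20: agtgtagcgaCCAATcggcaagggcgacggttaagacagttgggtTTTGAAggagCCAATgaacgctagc
Cenpf: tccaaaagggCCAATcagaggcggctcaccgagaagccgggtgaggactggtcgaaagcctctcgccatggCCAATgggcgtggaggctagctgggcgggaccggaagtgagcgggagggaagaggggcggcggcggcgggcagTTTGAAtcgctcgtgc
Hmmr: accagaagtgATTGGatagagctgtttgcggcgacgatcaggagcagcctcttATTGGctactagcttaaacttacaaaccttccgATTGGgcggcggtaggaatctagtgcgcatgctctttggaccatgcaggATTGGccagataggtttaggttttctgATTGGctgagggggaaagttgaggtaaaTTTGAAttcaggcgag
Prc1: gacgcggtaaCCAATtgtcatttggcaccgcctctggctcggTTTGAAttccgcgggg
Top2a: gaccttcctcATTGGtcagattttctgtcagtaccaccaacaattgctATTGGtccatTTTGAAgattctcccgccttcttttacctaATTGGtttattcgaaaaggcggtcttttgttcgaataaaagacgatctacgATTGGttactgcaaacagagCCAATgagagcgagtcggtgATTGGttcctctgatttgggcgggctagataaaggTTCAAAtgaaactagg
Kif18b: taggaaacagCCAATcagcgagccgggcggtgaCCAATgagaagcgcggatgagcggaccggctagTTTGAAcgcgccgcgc

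The stretches lie at chr9:70421535.0-70421731.0 (minus strand) for Ccnb2, chr10:69352912.0-69353130.0 (minus) for Cdk1 and chr4:118437337.0-118437406.0 (minus) for Cdc20. Those of Cenpf and Hmmr are at chr1:189688069.0-189688228.0 (minus) and chr11:40733414.0-40733619.0 (minus). For Prc1, Top2a and Kif18b they are at chr7:80294404.0-80294461.0 (plus), chr11:99024197.0-99024426.0 (minus) and chr11:102925106.0-102925187.0 (minus). All 8 hold a CHR core close to the start site and at least 1 CCAAT box before it. In Ccnb2, a cyclin of mitotic entry, 3 CCAAT boxes begin 87, 54 and 21 bases before the start and a CHR core begins at position 5 after it. In Cenpf, which encodes a kinetochore protein, the CHR core begins at position 3. Hmmr, which encodes a spindle-associated protein, has 5 CCAAT boxes, all read on the opposite strand, and Top2a has 6.

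A CHR core stood within 50 bases of the start in 67.5% of the 40 members, against 5.72% of the 27025 genes in the table. A CCAAT box stood anywhere in the 300 bases in 77.5% of members against 41.1% of all genes, and 2 or more boxes in 47.5% against 13.3%. Both together, a CHR core near the start and a CCAAT box, were found in 62.5% of members and 2.39% of all genes. They were in 51.9% of the 27 matched members called higher at 6 mg/kg and in 84.6% of the 13 other matched members, which were not called or not tested. Over the 42 promoters of these 40 genes (Ect2 and Prc1 have 2 annotated starts, so their shared matches are counted for each) the 40 CHR matches had a median position of 3, and 69 of the 72 CCAAT matches began before the start. In Cdca8 the letters of a CHR core and a CCAAT box overlap. Neither motif was in the 300 bases of Birc5, Mad2l1, Pttg1, Nuf2, Melk or Nusap1. A match is a description of letters and says nothing of what is bound in these livers.

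**Figure D1:**
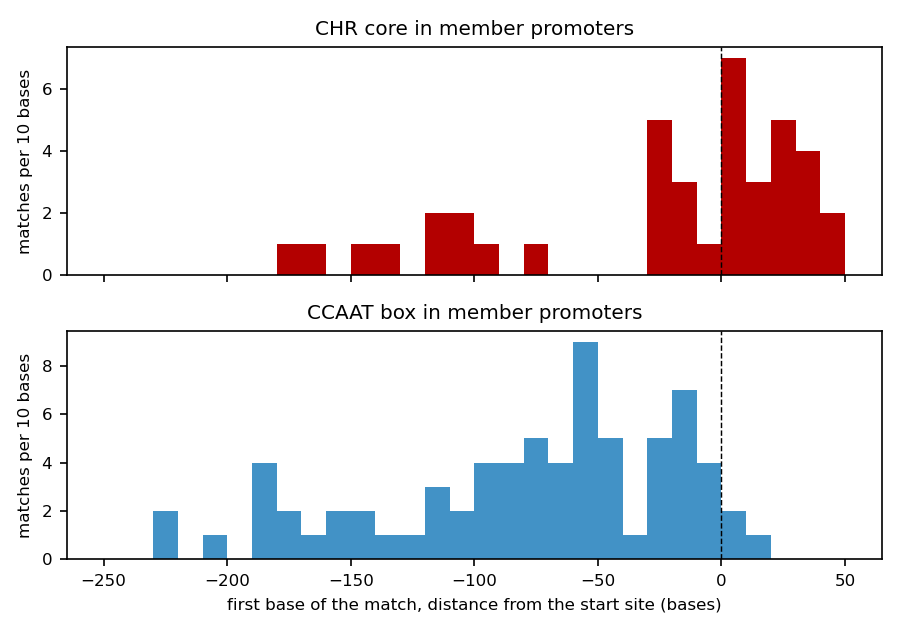
Positions of CHR cores (upper panel) and CCAAT boxes (lower panel) in the 42 promoters of 40 mitosis and spindle genes, as matches per 10 bases against the distance of the first base of the match from the start site (dashed line). The CHR matches gather around the start site, with 30 of 40 within 50 bases, and 69 of 72 CCAAT matches lie before it.

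Together the 90 probes took a very small share of each library, and that share was larger at the higher doses. In the order of replicates 1 to 4, used for every list of values here, they held 0.004338, 0.007469, 0.004459 and 0.004841% of the counts in control livers. At 0.03 mg/kg they held 0.003545, 0.00369, 0.00382 and 0.003255%, and at 0.3 mg/kg 0.004839, 0.003501, 0.005063 and 0.006145%. The lowest-dose livers were all below the control livers, and those of 0.3 mg/kg overlapped the controls. At 3 mg/kg the share was 0.01094, 0.01866, 0.02173 and 0.02339%, and at 6 mg/kg 0.0382, 0.05165, 0.04958 and 0.06594%. Every liver at 3 mg/kg was above every liver of the 3 lower groups, and every liver at 6 mg/kg was above every liver at 3 mg/kg. The mean share was 3.54 times that of control at 3 mg/kg and 9.73 times at 6 mg/kg. The lowest liver at 3 mg/kg was 1.47 times the highest control, and the lowest at 6 mg/kg was 1.63 times the highest at 3 mg/kg. In whole liver, more cells in mitosis and more RNA per such cell cannot be told apart.

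**Figure D2:**
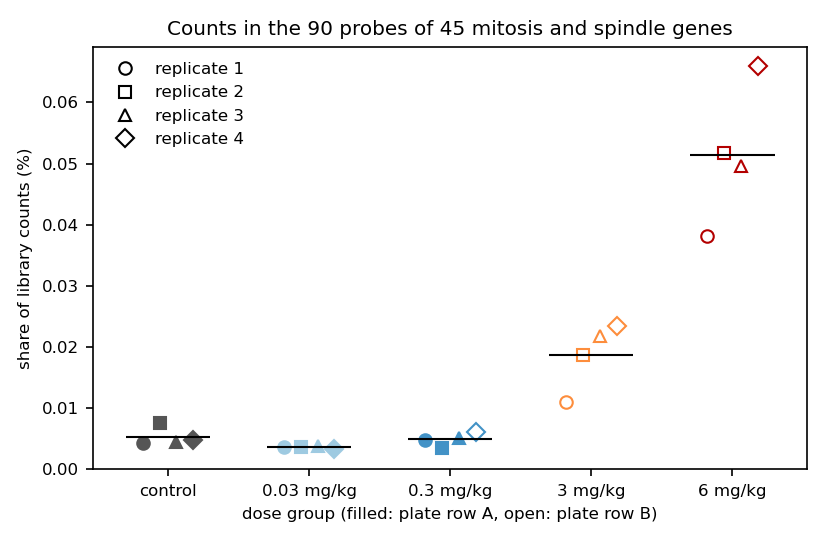
Share of each library's counts in the 90 probes (%) by dose group, with 1 point per mouse, the group mean as a line, and filled or open symbols for plate row A or B. The 4 livers at 6 mg/kg lie between 0.0382 and 0.06594%, above the 4 at 3 mg/kg, which lie above all 12 at lower doses.

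The libraries held 6823518 to 10310931 counts, so the floor of 3 counts corresponds to 0.251 to 0.511 CPM, where CPM scales a count to the library's total. Levels are compared between livers for each gene and not between genes, since probes differ in efficiency. Most control values below are at or near that floor, and counts of so few reads carry a large counting error. With each gene read at its probe of highest mean count, 28 of the 45 members reached 1.13 CPM, the level used by the filter on low counts, in no control library, and 31 reached it in all 4 libraries at 6 mg/kg. After that filter, 34 members were tested among 10097 genes. A member with control values near 0 passed that filter only through the dosed livers. The number of tested members called, and the medians over them, are therefore descriptions and not support. All libraries carried hepatocyte markers: the 10 markers listed sum to 31400 to 40200 CPM in controls and 19200 to 24700 CPM at 6 mg/kg.

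Plate position went with dose. The control and 0.03 mg/kg livers and 3 of the 0.3 mg/kg livers stood in plate row A, and the remaining 0.3 mg/kg liver (replicate 4) and all livers at 3 and 6 mg/kg stood in row B. That 0.3 mg/kg liver in row B held 0.006145% of its counts in the 90 probes, above the other 3 of its group and below the lowest value at 3 mg/kg. With plate row in the edgeR model, which only that liver informs, no member was called at 3 mg/kg against control, where 0.0099% of all genes were called higher, and 10 were called at 6 mg/kg, where 1.6% were. The step from 3 to 6 mg/kg lies within row B, where the same model called 19, against 3.93% of all genes.

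At the low doses no member was called in edgeR's quasi-likelihood test at a Benjamini-Hochberg adjusted p of 0.05, as 0% of all genes tested were called higher at 0.03 or at 0.3 mg/kg. At an unadjusted p of 0.05, of the 34 tested none was higher and 5 were lower at 0.03 mg/kg, where 1.36% of all genes were higher and 1.89% lower, and 1 was higher at 0.3 mg/kg, where 3.62% of all genes were. DESeq2 likewise called none at either dose. In 3 members every liver at 0.03 mg/kg was below every control, a pattern seen in 1.32% of all 21450 genes.

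At 3 mg/kg, 16 members were higher than control at adjusted p 0.05 (edgeR) and 0 were lower, where 1.13% of all genes tested were called higher and 0.406% lower. They were the cyclin genes Ccna2, Ccnb1 and Ccnb2, the kinase genes Plk1 and Aurkb, and Birc5, Cdc20, Cenpe, Cenpf, Ndc80, Kif2c, Tpx2, Hmmr, Prc1, Kif20a and Top2a. At 6 mg/kg 31 were higher and 0 lower, where 10.9% of all genes were called higher and 9.64% lower. Without the count filter all 45 members had a p, and 17 were called at 3 mg/kg and 35 at 6 mg/kg, where 0.585% and 4.55% of the 20511 genes were called higher. Over all 45 members and with no filter, every liver at 3 mg/kg was above every control in 21, against 1.85% of all genes. At 6 mg/kg this held in 36, against 6.35%. The median log2 change of the 34 tested members was 2.04 at 3 mg/kg and 3.37 at 6 mg/kg, beside -0.01 and -0.02 over all genes tested. These comparisons share their control livers, so they are not independent of each other.

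**Figure D3:**
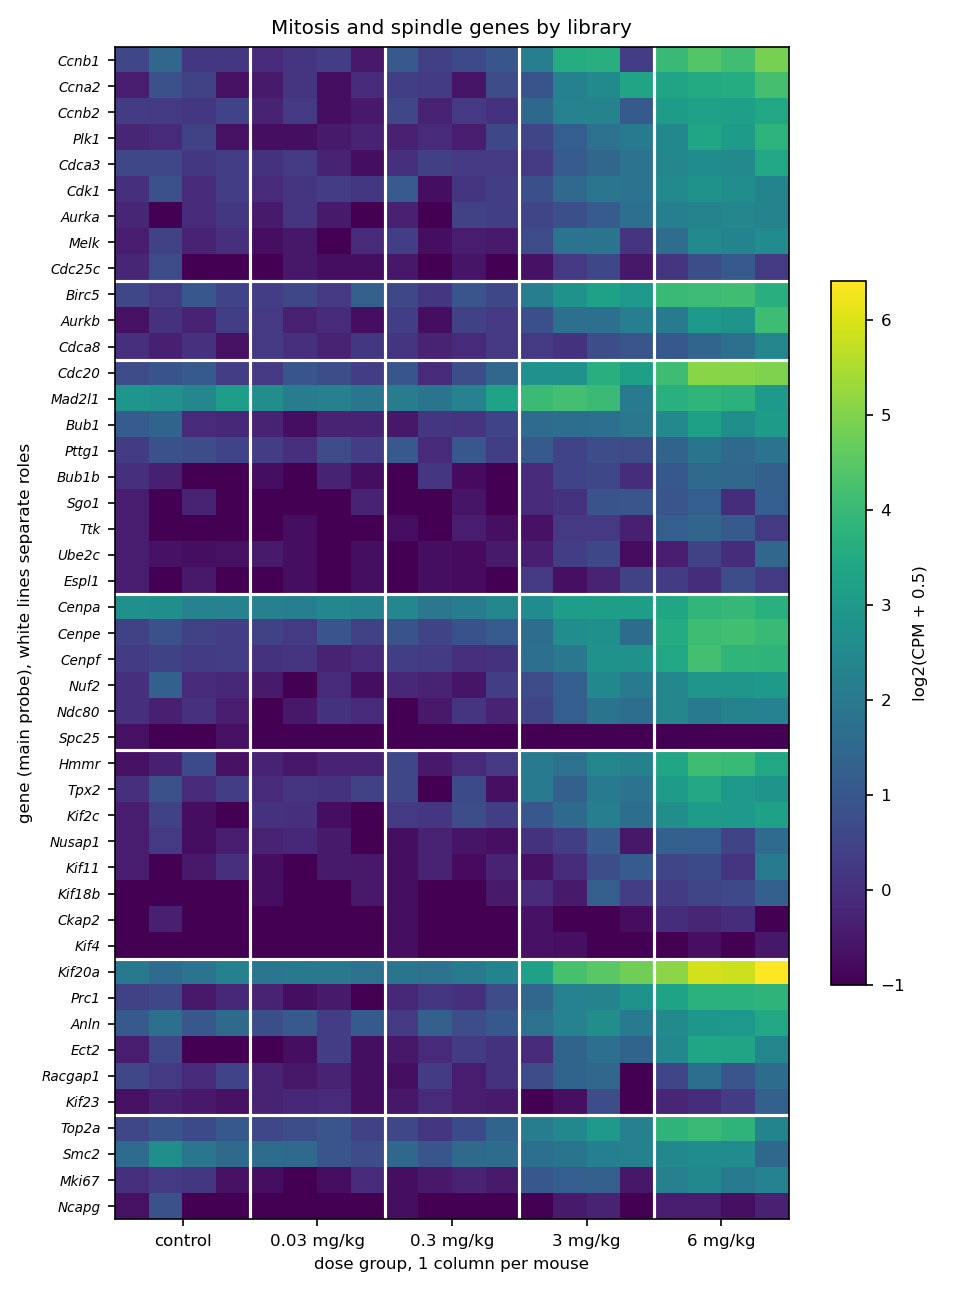
Level of each of the 45 genes (log2 of CPM + 0.5, main probe, colour) in each of the 20 livers, with 1 column per mouse by dose group and 1 row per gene, ordered by role. The columns at 6 mg/kg are brightest and those at 3 mg/kg intermediate for most genes, while Spc25 and Kif4 stay dark throughout.

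The genes of mitotic entry rose in all tested members at 6 mg/kg: 8 of 8 tested, of 9 in the group, against 4 at 3 mg/kg. Of all genes tested, 10.9% were called higher at 6 mg/kg and 1.13% at 3 mg/kg. Many members passed the filter only through the dosed livers. The counts of this role group and of those below are therefore descriptions. Ccnb1 encodes cyclin B1, the partner of CDK1 at the start of mitosis. Its CPM in control livers were 0.998, 2.25, 0.647 and 0.649, at 0.03 mg/kg 0.444, 0.597, 0.776 and 0.217, and at 0.3 mg/kg 1.59, 0.828, 1.09 and 1.46. They were 4.01, 11.4, 11.9 and 0.763 at 3 mg/kg and 15.8, 21, 17 and 29.4 at 6 mg/kg. All livers at 6 mg/kg were above all others, but replicate 4 at 3 mg/kg lay within the control range. The log2 change was 2.62 ± 0.61 (SE) at 3 mg/kg (edgeR adjusted p = 0.033) and 4.22 ± 0.59 at 6 mg/kg (adjusted p = 6.4e-05). The second Ccnb1 probe gave 3.6, 5.52, 5.11 and 0.858 CPM at 3 mg/kg, so replicate 4 was low by both probes. The call of the main probe at 3 mg/kg was lost in 9 of the 32 alternative fits. Among them were those without replicate 1, 3 or 4 of the controls, or without replicate 2 or 3 of the 3 mg/kg group (log2 change 2.24 to 2.59, edgeR adjusted p 0.088 to 0.11). It was also lost with limma-voom (2.03, adjusted p 0.26), without the count filter (2.64, edgeR adjusted p 0.081) and with plate row in the model.

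Ccna2 encodes cyclin A2, which acts from S phase into early mitosis. It had 0.25, 1.27, 0.863 and 0.13 CPM in controls, 0.222, 0.597, 0.111 and 0.434 at 0.03 mg/kg and 0.793, 0.724, 0.168 and 1.12 at 0.3 mg/kg. At 3 mg/kg it had 1.38, 4.28, 5.28 and 9.44 and at 6 mg/kg 9.49, 11.1, 11.6 and 18. Here replicate 4 was the highest of its group at both doses, and neither dose overlapped the controls. The log2 change was 3.03 ± 0.58 at 3 mg/kg (edgeR adjusted p = 0.0067) and 4.30 ± 0.56 at 6 mg/kg (adjusted p = 2e-05). With the probe of highest mean in controls it was 2.25 at 3 mg/kg, and with plate row in the model 2.00 and 3.28, neither of which passed.

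Cdk1 encodes the mitotic cyclin-dependent kinase itself. It stood at 0.499, 1.27, 0.431 and 0.779 CPM in controls, 0.444, 0.597, 0.776 and 0.652 at 0.03 mg/kg and 1.69, 0.103, 0.586 and 0.784 at 0.3 mg/kg. The values were 1.24, 2.37, 3.24 and 3.05 at 3 mg/kg, where replicate 1 was below the highest control, and 5.28, 6.33, 5.68 and 4.6 at 6 mg/kg, above all other livers. The change at 3 mg/kg was 1.75 ± 0.47, which missed the threshold (edgeR adjusted p = 0.066), and at 6 mg/kg 2.89 ± 0.44 (adjusted p = 0.00011). Without replicate 1 of the 3 mg/kg group the first of these was 2.00 and passed (adjusted p = 0.026), and it also passed without replicate 1 or 2 of the 0.3 mg/kg group, at 1.76 and 1.75. Of the other entry genes, Plk1 (polo-like kinase 1) rose by 2.31 and 4.24 on the log2 scale at 3 and 6 mg/kg, and Ccnb2 by 2.05 and 3.56. Aurka (Aurora A), Melk and Cdca3 passed at 6 and not at 3 mg/kg, at 3.54, 3.23 and 2.93. Cdc25c, the phosphatase that activates CDK1, was too low to test and had at most 1.66 CPM in any liver.

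**Figure D4:**
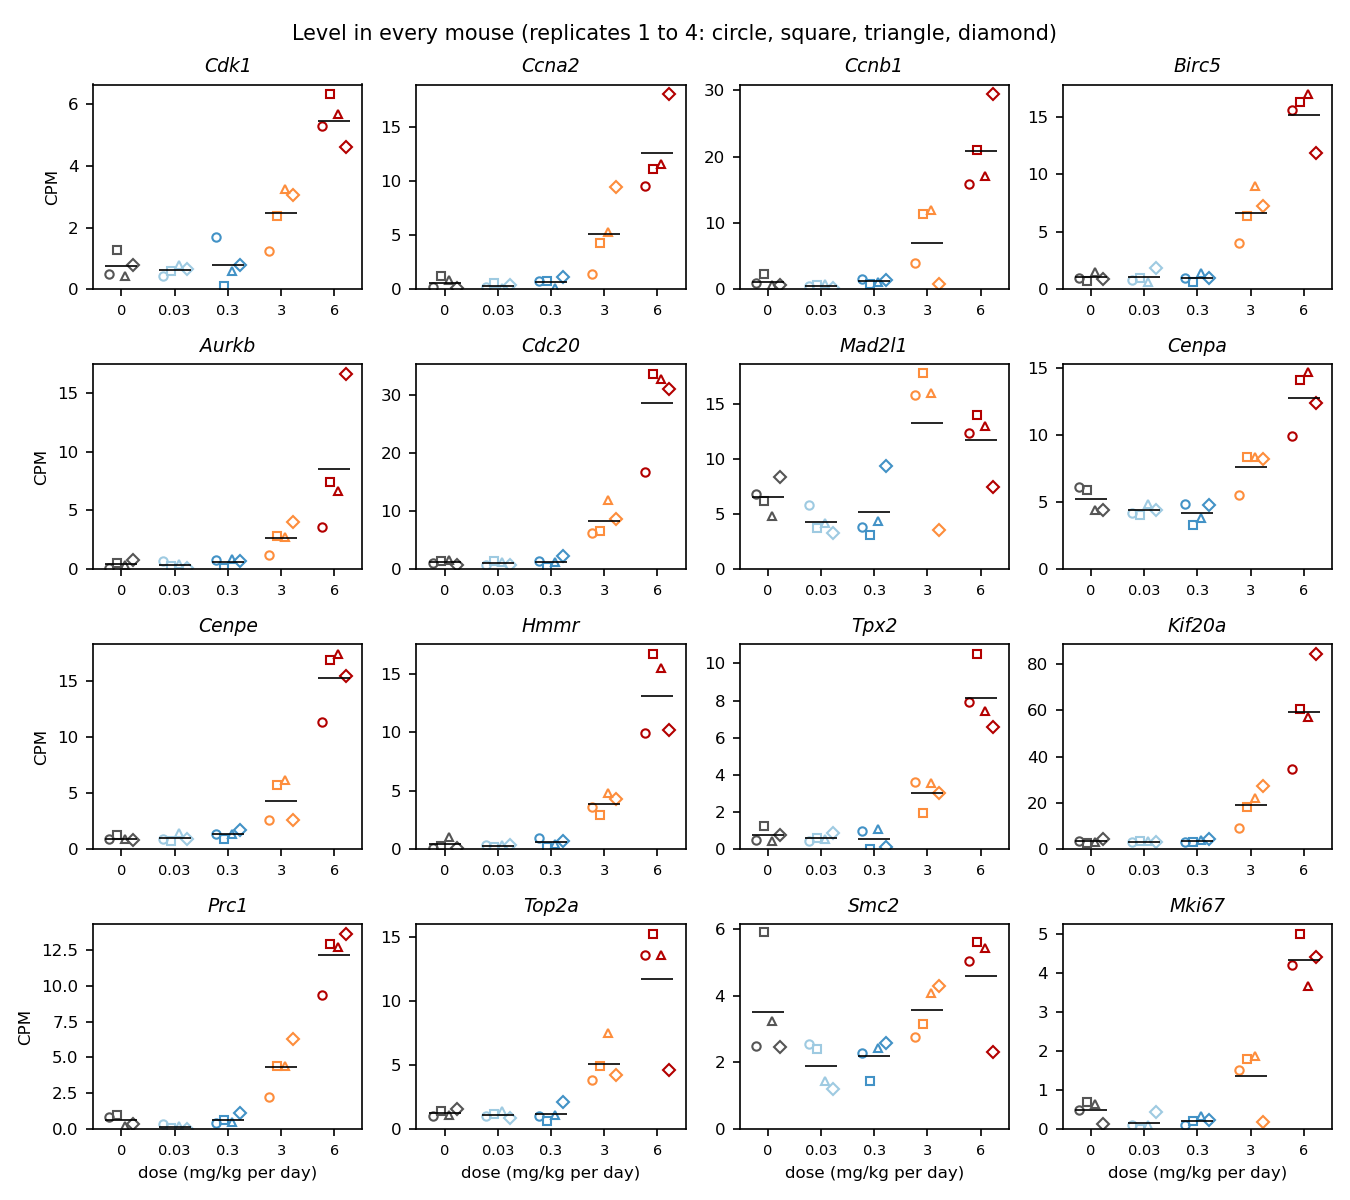
CPM of 16 mitosis and spindle genes (main probe) in every liver against dose (mg/kg per day, groups at equal spacing). Each panel has its own axis, with a line at each group mean and a marker shape for each replicate number. Most genes step up at 3 and again at 6 mg/kg, while replicate 4 (diamond) falls to control levels at 3 mg/kg for Ccnb1, Mad2l1 and Mki67 and is low at 6 mg/kg for Top2a and Smc2.

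The chromosomal passenger complex corrects faulty attachments and guides cytokinesis. All 3 of its genes among the 45 rose at 6 mg/kg, where 10.9% of all genes were called higher. At 3 mg/kg 2 rose, against 1.13% of all genes. Incenp, which encodes another subunit, is not among the 45. It was at -0.03 at 3 mg/kg and 2.085 at 6 mg/kg (edgeR adjusted p = 0.99 and 0.0053). Birc5 encodes survivin, which brings the complex to the centromere. Its CPM were 0.998, 0.704, 1.51 and 0.909 in controls, 0.777, 0.995, 0.665 and 1.85 at 0.03 mg/kg and 0.992, 0.621, 1.42 and 1.01 at 0.3 mg/kg. They were 4.01, 6.42, 9.03 and 7.25 at 3 mg/kg and at 6 mg/kg 15.6, 16.3, 17 and 11.9. The 3 lower groups overlapped, and each of the upper doses stood clear of the group beneath it. The log2 change was 2.65 ± 0.33 at 3 mg/kg (edgeR adjusted p = 8.9e-05) and 3.84 ± 0.32 at 6 mg/kg (adjusted p = 6e-08).

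Aurkb encodes Aurora B, the kinase of the complex. It had 0.125, 0.563, 0.323 and 0.779 CPM in controls, 0.666, 0.298, 0.443 and 0.109 at 0.03 mg/kg and 0.793, 0.103, 0.838 and 0.672 at 0.3 mg/kg. The values at 3 mg/kg were 1.24, 2.82, 2.73 and 4.01 and at 6 mg/kg 3.6, 7.43, 6.62 and 16.6, with replicate 4 far above the others at 6 mg/kg and replicate 1 within the 3 mg/kg range. It rose by 2.60 ± 0.60 at 3 mg/kg (edgeR adjusted p = 0.028) and 4.25 ± 0.56 at 6 mg/kg (adjusted p = 2.1e-05). The call at 3 mg/kg was lost without replicate 1, 2 or 3 of the controls, or without replicate 2, 3 or 4 of the 3 mg/kg group (log2 change 2.34 to 2.73, edgeR adjusted p 0.054 to 0.11). Its second probe rose too, by 2.31 and 3.75. Cdca8, which encodes borealin, changed by 1.36 at 3 mg/kg (edgeR adjusted p = 0.25) and rose by 2.91 at 6 mg/kg.

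In the group of the spindle checkpoint and anaphase, 1 of 6 tested genes rose at 3 mg/kg, against 1.13% of all genes. At 6 mg/kg 5 of the 6 rose, against 10.9%. Cdc20, the activator of the anaphase-promoting complex, was at 1.12, 1.41, 1.62 and 0.779 CPM in controls, 0.666, 1.49, 1.22 and 0.76 at 0.03 mg/kg and 1.49, 0.414, 1.17 and 2.24 at 0.3 mg/kg. It was at 6.22, 6.54, 11.9 and 8.68 at 3 mg/kg and 16.7, 33.6, 32.8 and 31.1 at 6 mg/kg, the first replicate being well below the others at 6 mg/kg but above all livers at 3 mg/kg. Its log2 change came to 2.73 ± 0.37 (edgeR adjusted p = 0.00029) and 4.51 ± 0.37 (adjusted p = 5.8e-08), and with plate row in the model to 1.62, which missed the threshold, and 3.41, which passed.

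Mad2l1 encodes MAD2, which binds CDC20 and holds it inactive while the checkpoint is on, and it did not follow this pattern. It was at 6.86, 6.19, 4.85 and 8.44 CPM in controls, 5.88, 3.78, 4.21 and 3.26 at 0.03 mg/kg and 3.87, 3.1, 4.36 and 9.41 at 0.3 mg/kg. It was at 15.9, 17.9, 16 and 3.53 at 3 mg/kg and 12.4, 14, 13 and 7.5 at 6 mg/kg. Replicate 4 at 3 mg/kg was below every control, while the other 3 of that group were the highest of all livers. The change was 1.01 ± 0.39 at 3 mg/kg and 0.83 ± 0.39 at 6 mg/kg (edgeR adjusted p = 0.29 and 0.14), and the step from 3 to 6 mg/kg was -0.18 ± 0.38 (adjusted p = 0.82). Without replicate 4 of the 3 mg/kg group it passed at both doses, at 1.34 and 0.85 (adjusted p = 0.013 and 0.021). With plate row in the model its sign turned at both doses, to -0.30 at 3 mg/kg and -0.48 at 6 mg/kg. Among its partners, the checkpoint kinase gene Bub1 rose by 2.60 at 6 mg/kg, Bub1b by 3.34, the cohesin protector Sgo1 by 3.06 and Pttg1, which encodes securin, by 1.35. Ttk, Ube2c and Espl1, which encode the checkpoint kinase MPS1, a ubiquitin-conjugating enzyme of the anaphase-promoting complex and separase, were below the count filter. Ttk had 2, 0, 0 and 0 counts in controls and 15, 18, 14 and 7 at 6 mg/kg, and without the filter its edgeR adjusted p at 6 mg/kg was 0.00034.

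Of the centromere and kinetochore genes, 3 of 5 tested rose at 3 mg/kg and all 5 at 6 mg/kg. Among all genes 1.13% and 10.9% were called higher at these doses. Cenpe encodes CENP-E, a kinesin that moves chromosomes to the metaphase plate. It had 0.874, 1.27, 0.863 and 0.779 CPM in controls, 0.888, 0.696, 1.44 and 0.869 at 0.03 mg/kg and 1.39, 0.931, 1.34 and 1.68 at 0.3 mg/kg. Livers at 3 mg/kg had 2.63, 5.75, 6.13 and 2.57, and those at 6 mg/kg 11.3, 16.8, 17.4 and 15.4, with no overlap between the groups at 0.3, 3 and 6 mg/kg. It rose by 2.15 ± 0.34 (edgeR adjusted p = 0.00093) and by 4.0 ± 0.32 (adjusted p = 5e-08).

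Cenpa encodes CENP-A, the histone H3 variant that marks centromeres, and it was among the 5 members with a control mean over 2 CPM. It had 6.12, 5.91, 4.42 and 4.41 CPM in controls, 4.22, 4.08, 4.88 and 4.45 at 0.03 mg/kg and 4.86, 3.31, 3.85 and 4.82 at 0.3 mg/kg. It had 5.53, 8.34, 8.35 and 8.2 at 3 mg/kg, where replicate 1 lay within the controls, and 9.97, 14.1, 14.7 and 12.4 at 6 mg/kg, clear of all others. The change was 0.55 ± 0.20 at 3 mg/kg (edgeR adjusted p = 0.23) and 1.29 ± 0.20 at 6 mg/kg (adjusted p = 8.4e-05), the smallest at 6 mg/kg in its group. Cenpf showed the largest, 4.12 (edgeR adjusted p = 1.4e-08), and the NDC80 complex genes Ndc80 and Nuf2 rose by 3.40 and 3.05. The probe for Spc25, another subunit of that complex, had 1 count in each of 2 control libraries and 0 in all dosed livers, a level too low to compare.

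Among spindle motors and microtubule proteins, 3 of 4 tested genes rose at 3 mg/kg and 4 at 6 mg/kg, of 8 in the group. The shares of all genes called higher were 1.13% and 10.9%. Hmmr had the largest change of all 34 tested members at 6 mg/kg. Its CPM were 0.125, 0.281, 1.08 and 0.13 in controls, 0.333, 0.199, 0.332 and 0.326 at 0.03 mg/kg and 0.992, 0.207, 0.419 and 0.672 at 0.3 mg/kg. They were 3.6, 2.93, 4.77 and 4.29 at 3 mg/kg and 9.97, 16.7, 15.5 and 10.2 at 6 mg/kg. The groups at 3 and 6 mg/kg overlapped neither each other nor the lower groups. The log2 change was 3.14 ± 0.46 (edgeR adjusted p = 0.00052) and 4.89 ± 0.43 (adjusted p = 1.2e-07). Its size depended on control replicate 3, and without that liver it was 4.38 at 3 mg/kg and 6.11 at 6 mg/kg (adjusted p = 6.8e-05 and 1.4e-07). Its 2 other tested probes rose by 3.95 and 3.78 at 6 mg/kg.

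Tpx2 encodes the activator of Aurora A on spindle microtubules. It had 0.499, 1.27, 0.431 and 0.779 CPM in controls, 0.444, 0.597, 0.554 and 0.869 at 0.03 mg/kg and 0.992, 0, 1.09 and 0.112 at 0.3 mg/kg. It had 3.6, 1.92, 3.58 and 3.05 at 3 mg/kg and 7.92, 10.5, 7.45 and 6.6 at 6 mg/kg, each above the groups below. The change was 2.03 ± 0.50 (edgeR adjusted p = 0.044) and 3.46 ± 0.48 (adjusted p = 3.4e-05). The call at 3 mg/kg is close to the threshold and was lost in 12 of the 20 fits that each leave out 1 liver (log2 change 1.85 to 2.08, edgeR adjusted p 0.051 to 0.14), among them those without control replicate 1, 3 or 4 and without replicate 1 or 3 at 3 mg/kg. With plate row in the model the change was 4.56 at 3 mg/kg, which missed the threshold, and 5.98 at 6 mg/kg, which passed. Kif2c, a kinesin that takes microtubule ends apart, rose by 3.15 and 4.66, and Nusap1 by 2.46 at 6 mg/kg. Kif11, Kif4, Kif18b and Ckap2 were not tested. Kif18b, a kinesin gene whose promoter is shown above, had 0 counts in all 4 controls, 3, 2, 11 and 8 at 3 mg/kg, and 6, 8, 9 and 19 at 6 mg/kg. Kif11, the kinesin that pushes the spindle poles apart, had 2, 0, 2 and 4 counts in controls and 8, 9, 5 and 37 at 6 mg/kg. For both the edgeR adjusted p without the filter passed at 6 mg/kg, at 0.00028 for Kif18b and 0.014 for Kif11.

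In the group of the central spindle and cytokinesis, 2 of 5 tested genes rose at 3 mg/kg, against 1.13% of all genes. At 6 mg/kg 4 of the 5 rose, against 10.9%. Kif20a encodes a kinesin of the central spindle. Its CPM were 3.49, 2.53, 3.02 and 4.28 in controls, 3.22, 3.48, 3.43 and 2.93 at 0.03 mg/kg and 3.17, 2.9, 3.77 and 4.59 at 0.3 mg/kg. They were 8.99, 18.4, 22.1 and 27.2 at 3 mg/kg and 34.6, 60.4, 56.9 and 84.4 at 6 mg/kg, with replicate 1 lowest and replicate 4 highest in both groups. On the log2 scale it rose by 2.52 ± 0.30 (edgeR adjusted p = 7.5e-05) and 4.14 ± 0.31 (adjusted p = 2.2e-08). Its 2 probes gave 5.08 to 11.3% of the counts of all 90 probes in controls and 13.8 to 21.1% at 6 mg/kg. Without them the share of library counts was still 8.78 times that of control at 6 mg/kg.

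Prc1 encodes the protein that bundles central spindle microtubules. It had 0.874, 0.985, 0.216 and 0.389 CPM in controls, 0.333, 0.0995, 0.222 and 0 at 0.03 mg/kg and 0.397, 0.621, 0.503 and 1.12 at 0.3 mg/kg. It had 2.21, 4.4, 4.43 and 6.29 at 3 mg/kg and 9.37, 12.9, 12.7 and 13.6 at 6 mg/kg, with no overlap between these and the lower groups. The change was 2.84 ± 0.43 (edgeR adjusted p = 0.00067) and 4.31 ± 0.41 (adjusted p = 3.2e-07), and fitted with plate row 1.72 (adjusted p = 0.92) and 3.18 (adjusted p = 0.045). Ect2, the exchange factor that activates RhoA at the cleavage furrow, rose by 4.61 at 6 mg/kg by its main probe, while its second probe was at 1.44 and missed the threshold (adjusted p = 0.073). Its partner gene Racgap1 was at 1.34 (edgeR adjusted p = 0.13) by its main probe, which read 0 CPM in replicate 4 at 3 mg/kg. Other Racgap1 probes, below the filter, read 0.858 and 0.286 CPM in that liver. Anln, which encodes the scaffold anillin, rose by 1.84 at 6 mg/kg, and Kif23 was below the filter.

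The chromosome structure group holds the genes of topoisomerase II alpha, of Ki-67 and of 2 condensin subunits. Top2a, which untangles DNA before anaphase, had 0.998, 1.41, 1.08 and 1.56 CPM in controls, 0.999, 1.19, 1.44 and 0.869 at 0.03 mg/kg and 0.992, 0.621, 1.09 and 2.13 at 0.3 mg/kg. It had 3.87, 4.96, 7.5 and 4.2 at 3 mg/kg and 13.6, 15.3, 13.6 and 4.6 at 6 mg/kg. Replicate 4 at 6 mg/kg was within the 3 mg/kg range, yet above all controls. The change was 2.01 ± 0.39 (edgeR adjusted p = 0.0067) and 3.21 ± 0.38 (adjusted p = 4.7e-06), and fitted with plate row 0.79 and 2.00 (adjusted p = 0.92 and 0.12). By the second probe that replicate was also the lowest of its group, at 7.3 CPM beside 9.61, 13.9 and 11.7.

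Mki67 encodes Ki-67, the usual stain for cycling cells. It had 0.499, 0.704, 0.647 and 0.13 CPM in controls, 0.111, 0, 0.111 and 0.434 at 0.03 mg/kg and 0.0992, 0.207, 0.335 and 0.224 at 0.3 mg/kg. It had 1.52, 1.8, 1.87 and 0.191 at 3 mg/kg and 4.2, 4.99, 3.67 and 4.4 at 6 mg/kg. By this main probe, replicate 4 at 3 mg/kg was again within the controls, and all livers at 6 mg/kg were above all others. The change was 1.36 ± 0.57 at 3 mg/kg (edgeR adjusted p = 0.34) and 3.08 ± 0.52 at 6 mg/kg (adjusted p = 0.00027). With replicate 4 of both upper doses left out, the change at 3 mg/kg was 1.77 and passed (adjusted p = 0.045). The second Mki67 probe, below the filter, did not repeat the low replicate 4. It had 0, 0, 0.341 and 0.477 CPM at 3 mg/kg, a few counts each, and at most 0.108 CPM in controls.

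Smc2 encodes a condensin ATPase, and its main probe showed the smallest change of the tested members. It had 2.5, 5.91, 3.23 and 2.47 CPM in controls, 2.55, 2.39, 1.44 and 1.19 at 0.03 mg/kg and 2.28, 1.45, 2.43 and 2.58 at 0.3 mg/kg. It had 2.77, 3.16, 4.09 and 4.29 at 3 mg/kg and 5.04, 5.6, 5.44 and 2.3 at 6 mg/kg, and both doses overlapped the controls. The change was 0.03 ± 0.33 and 0.38 ± 0.32 (edgeR adjusted p = 0.98 and 0.42), and the sign at 3 mg/kg turned without control replicate 1 or 4 (-0.0733 and -0.0865) or without replicate 4 of its own group (-0.0758). The 2 tested Smc2 probes differ: the second rose by 2.03 at 6 mg/kg (adjusted p = 0.0033), with replicate 4 the highest of all livers there and the lowest of its group by the main probe. With all its probes summed, Smc2 changed by 0.97 at 6 mg/kg and passed (adjusted p = 0.013). Ncapg, another condensin gene, was below the filter.

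**Figure D5:**
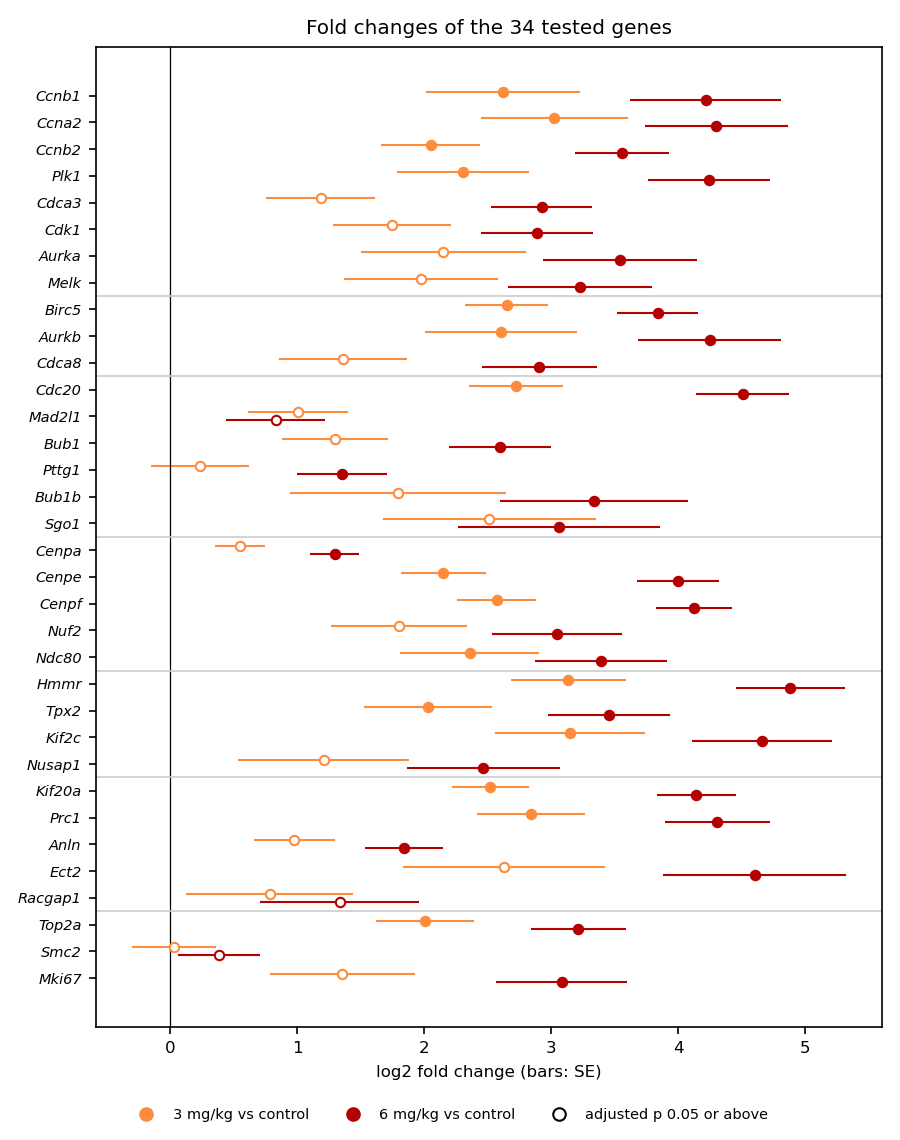
Log2 change against control (horizontal axis, bars are SE) of the 34 tested genes at 3 mg/kg (orange) and 6 mg/kg (dark red), main probe, ordered by role, with filled points for an edgeR adjusted p under 0.05. At 6 mg/kg 31 points are filled and reach 4.89 for Hmmr, while Mad2l1, Racgap1 and Smc2 are open.

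Beside the main probes, 17 other probes of 14 members were tested, and all 17 had the sign of the main probe at both doses. Many of them had very low control counts and passed the filter only through the dosed livers. Their shared sign is therefore a description and not support. Below the filter, a second Ndc80 probe went the other way, with means of 0.412 CPM in controls and 0.166 CPM at 6 mg/kg. Of these, 9 were called higher at 3 mg/kg and 16 at 6 mg/kg, where 1.11% and 11.6% of all probes were called higher. The exceptions in call at 6 mg/kg were the second probes of Ect2 and Smc2, given above. At 3 mg/kg, probes of Plk1, Cdc20, Cenpf and Prc1 beside the main one missed the threshold, at 2.31, 2.52, 1.12 and 1.65.

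The step between the doses was examined next. From 0.3 to 3 mg/kg 23 members were higher and 0 lower in edgeR at adjusted p 0.05, where 2.01% of all genes were called higher, and in 23 of the 45 every liver at 3 mg/kg was above every liver at 0.3 mg/kg, against 4.72% of all genes. From 3 to 6 mg/kg 19 were higher and 0 lower, where 3.77% were called higher, and in 25 of 45 the livers did not overlap, against 3.16%. The smallest adjusted p among the members in this step were those of Cenpe, at 1.85 ± 0.27 (adjusted p = 0.00062), and Cenpf, at 1.55 ± 0.24 (adjusted p = 0.001). Group means rose from control to 3 and again to 6 mg/kg in 41 of the 45. This ordering was not counted over all genes, so that number is a description only. The count for the upper step depended on the livers in the fit: fitted on the 8 livers of 3 and 6 mg/kg alone, 0 of 34 tested passed, where 0.0851% of all genes were called higher, and without replicate 1 of the 3 mg/kg group 8 did, against 1.24% of all genes. Without replicate 2 of the 3 mg/kg group or replicate 2 of the 6 mg/kg group it was 11, against 1.93% and 2.11%. For the lower step it was 14 without replicate 2 or replicate 3 of the 0.3 mg/kg group, against 0.679% and 0.709%. In the same kind of fit on 8 livers, 5 of 20 members tested passed at 3 mg/kg against control, where 0.336% of all genes were called higher.

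Single livers set part of the spread. Replicate 1 was the lowest of its group in 22 of the 34 tested members at 3 mg/kg and in 23 at 6 mg/kg, and replicate 2 was the highest control in 17. Replicate 4 at 3 mg/kg was not low in general. By main probes it was the highest of its group in 12 tested members, among them Ccna2, Plk1 and Kif20a. It was the lowest in 8, among them Ccnb1, Mad2l1 and Mki67. With replicate 4 of both upper doses left out, 19 members were called at 3 mg/kg and 33 at 6 mg/kg, of 36 tested, where 1.55% and 13.4% of all genes were called higher. What sets these livers apart was not tested.

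Other genes of the cell cycle moved the same way in part. Of 86 further genes of G2/M, the spindle and the kinetochore, 59 were tested, and 10 rose at 3 mg/kg and 37 at 6 mg/kg with none lower in edgeR. Their median log2 change was 0.72 at 3 mg/kg and 1.35 at 6 mg/kg. Of all genes tested, 1.13% were called higher at 3 mg/kg and 10.9% at 6 mg/kg, shares to set beside each list in this paragraph. Knl1, the kinetochore scaffold, rose by 3.53 ± 0.32 at 6 mg/kg (edgeR adjusted p = 1.7e-07), and Pbk, a mitotic kinase gene, by 3.44 ± 0.28 (adjusted p = 5.8e-08). Of 30 DNA replication genes, 26 were tested, and 4 rose at 3 mg/kg and 11 at 6 mg/kg, with a median of 0.48 at 6 mg/kg. Mcm6, of the replicative helicase, rose by 3.25 and Rrm2, of ribonucleotide reductase, by 3.30. Of 10 tested G1 genes, 4 rose at 6 mg/kg, among them Ccne2 (cyclin E2) by 1.78 and Cdt1, which licenses origins, by 2.42. Among 4 tested cell cycle inhibitors, Cdkn1a, which encodes p21, rose by 2.79 ± 0.58 (edgeR adjusted p = 0.0019).

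The tested regulators of G2/M transcription showed no common direction. Of 23 listed, 13 were tested, and none was called at 3 mg/kg by edgeR, where 1.13% of all genes tested were called higher and 0.406% lower. At 6 mg/kg 2 rose and 2 fell, where 10.9% of all genes were called higher and 9.64% lower. Counts this small do not set the tested regulators apart from all genes. Tfdp1, a partner of E2F factors, rose by 0.81 and Nfyb, a subunit of the CCAAT-binding NF-Y, by 0.80. E2f5, which encodes an E2F found in DREAM, fell by 0.93 and Tfdp2 fell by 0.85. Lin9 was at -0.43 at 3 mg/kg and -0.84 at 6 mg/kg, neither of which passed (edgeR adjusted p = 0.61 and 0.06). Foxm1, Mybl2, E2f1 and E2f8 were too low to test, with means at 6 mg/kg of 0.29, 0.441, 0.857 and 0.531 CPM against 0.0352, 0.364, 0.308 and 0.171 CPM in controls.

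Liver holds other cells that can divide, and their markers were measured beside these genes. Of 10 hepatocyte markers, 1 was higher and 4 lower at 6 mg/kg, where 10.9% of all genes tested were called higher and 9.64% lower. The same shares stand beside the counts of all marker lists that follow, and several of those counts are near them. Of 8 tested Kupffer cell markers 1 was lower, and the list summed to 112 to 164 CPM in controls and 72.4 to 119 CPM at 6 mg/kg. The lymphocyte markers, 2 of 6 tested lower, summed to 12.9 to 26.3 CPM and 8.89 to 17.3 CPM. The neutrophil and monocyte list summed to 7.76 to 14 CPM in controls and 37.9 to 65.2 CPM at 6 mg/kg, 1 of 4 tested being higher: S100a8, by 4.92. The other 3 tested, Ly6g, Retnlg and Ccr2, were at -1.06, -0.08 and -0.34 at 6 mg/kg (edgeR adjusted p = 0.1, 0.94 and 0.37). Of those listed, Mpo and Elane were at or near 0, with means of 0.06 and 0 CPM at 6 mg/kg, and S100a9 had a mean of 0.878 CPM in controls and 0.464 CPM at 6 mg/kg.

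The erythroid list summed to 69 to 127 CPM in controls and 225 to 366 CPM at 6 mg/kg, 2 of 5 tested being higher, Tfrc by 2.22 and Alas2 by 1.21. Most of that sum is Tfrc, the transferrin receptor gene, at a mean of 53.8 CPM in controls and 250 CPM at 6 mg/kg, which cells other than red cell precursors also express. Hbb-bt was at -0.97 (edgeR adjusted p = 0.19), and Klf1 had a mean of 0.085 CPM at 6 mg/kg. Of the sinusoidal endothelial markers 1 of 9 tested was higher, of the stellate cell markers 1 was higher (Col1a1) and 5 lower of 9, and of 2 tested cholangiocyte markers none was called. The part of any of these cells in the rise of the mitosis genes was not tested.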

How the data were processed

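Liver RNA of 20 mice was read by TempO-Seq. The deposited matrix holds raw counts per probe, which the authors made by aligning reads with Bowtie, and the build named is GRCm38.p5, per the submitters' processing notes. Its version and settings are not stated there. Groups come from the sample labels, and replicate numbers only name the mice in accession order. From the deposited counts, probes were filtered with edgeR's filterByExpr (10 counts, here 1.13 CPM, in 4 libraries), which kept 14122 of 30146 probes and 99.8% of counts. edgeR 4.0.16 (R 4.3.3) fitted its robust quasi-likelihood model with TMM scaling to all 20 libraries, 1 mean per group and 15 residual degrees of freedom. Adjustment was by Benjamini-Hochberg across the tested probes, with a threshold of 0.05. The steps were tested on simulated data first. A gene is read at its main probe, the one of highest mean count over all libraries. CPM use TMM-scaled library totals. SE is the log2 change divided by the square root of F.

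The members, roles and lists were chosen with earlier results of these data known. Every liver's value is given for Cdk1, Ccnb1, Mki67, Top2a, Birc5, Cdc20 and Kif20a and for the 2 members of each role with the highest mean count. Other members are named where untested, called at 3 mg/kg, differing between probes, or extreme in their role. Other lists are shown by the 2 genes of smallest p in each direction at 6 mg/kg, with Foxm1, Mybl2, E2f1, E2f8, Lin9 and Cdkn1a. No 2 livers of a group agreed within counting noise (30 pairs, lowest chi-square per degree of freedom 3.66). The motif search covered both strands. Alternatives tried were other scalings, filters, tests, probes and libraries, and plate row as a covariate. DESeq2 1.42.0 and limma 3.58.1 served as alternatives.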

Additional observations from a re-analysis of the deposited data

Results flagged for a closer look

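In 8 of the 85 sets of 4 livers examined, the share of counts and the CPM of the 16 genes given in full, 1 liver stood apart by Dixon's criterion. The criterion marks about 1 in 20 sets by chance. Control replicate 2 held 0.007469% of its counts in the 90 probes, beside 0.004338 to 0.004841% in the other controls. Hmmr was at 1.08 CPM in control replicate 3, beside 0.125 to 0.281 CPM, and at 0.199 CPM in replicate 2 at 0.03 mg/kg, beside 0.326 to 0.333 CPM. These Hmmr levels are a few counts each. At 3 mg/kg, Mad2l1 was at 3.53 CPM in replicate 4, beside 15.9 to 17.9 CPM, and Cenpa at 5.53 CPM in replicate 1, beside 8.2 to 8.35 CPM. At 6 mg/kg, Cdc20 was at 16.7 CPM in replicate 1, beside 31.1 to 33.6 CPM. Replicate 4 of that group had 4.6 CPM for Top2a, beside 13.6 to 15.3 CPM, and 2.3 CPM for Smc2, beside 5.04 to 5.6 CPM.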

How the results depend on the processing

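The count of members higher than control at 3 mg/kg was 16 of 34 tested, where 1.13% of all genes were called higher. It became 9 of 34 with limma-voom, where 0.842% of all genes were called higher, and 21 of 34 with DESeq2, where 1.73% were. Percentages in brackets below are that same share in the fit named. It was 5 of 20 with only the 8 libraries compared (0.336%) and 0 of 34 with plate row as a covariate (0.0099%). With 1 library left out it was 11 to 18. At 6 mg/kg it was 31 of 34 (10.9%). With a count minimum of 50, which leaves fewer members to test, it was 14 of 15 (14.1%). With probes summed per symbol it was 37 of 38 (13%). It was 10 of 34 with plate row (1.6%), and 31 to 34 with 1 library left out. From 0.3 to 3 mg/kg it was 23 of 34 (2.01%), and 13 of 15 with the minimum of 50 (2.29%). It was 7 of 20 with the 8 libraries (0.593%) and 0 of 34 with plate row (0.0099%). DESeq2 gave 27 of 34 (3.81%). Without replicate 4 of both upper doses it was 27 of 36 (6.42%), and 14 to 26 with 1 left out. From 3 to 6 mg/kg it was 19 of 34 (3.77%), then 0 of 34 with the 8 libraries (0.0851%) and 8 to 25 with 1 left out. For this step limma-voom gave 26 of 34 (4.32%) and DESeq2 24 of 34 (5.32%). No member was called lower at 3 or 6 mg/kg, or higher at either low dose, in any setting run. With 1 library left out, the ratio of shares to control was 3.24 to 4.11 for the 3 mg/kg livers and 8.81 to 11.3 for those at 6 mg/kg. Among the 16 genes given in full, 445 of 506 changes at 3 mg/kg and 496 of 508 at 6 mg/kg kept direction and call. Those that turned sign were Mad2l1 with plate row (-0.30 at 3 mg/kg and -0.48 at 6 mg/kg) and Smc2 at 3 mg/kg with plate row (-0.29), without replicate 4 of both upper doses (-0.0834) and with 1 library left out (-0.0865 to 0.38; below 0 without control replicate 1 or 4 or replicate 4 at 3 mg/kg). The causes were not tested. With library totals alone, the median of all genes moved to 0.12 at 6 mg/kg and the members called stayed 31. The groups were compared as unpaired, since nothing in the labels links a mouse of one group to a mouse of another. Where the control livers hold only a few counts of a gene, depth limits the precision of its fold.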
